A study of Mus musculus with 16 samples.

Results

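The clustered protocadherins are cell-surface adhesion proteins encoded side by side in 3 gene clusters, alpha, beta and gamma, on mouse chromosome 18. The members described here are the 51 genes of 21220 in the authors' normalized table whose symbol begins with Pcdha, Pcdhb or Pcdhg, of which 9 belong to the alpha, 22 to the beta and 20 to the gamma cluster. They were chosen by name among the genes of that table. The count files hold 58 genes of the clusters, and the 7 that are not in the table had 0 to 8 counts each over all libraries, while every member had at least 10. A low count need not mean a low level. By the GENCODE M21 annotation Pcdhga10, one of the 7, shares all its exon bases with other genes, and Pcdha4 all but 7.0%. Reads on shared bases are in no gene's count. RNA was measured in organs of Corti, the hearing epithelium of the cochlea, taken from C57BL/6 mice at postnatal day 0 and kept for 3.5 days as explants. The 16 libraries form 4 groups of 4. Wild-type and Rest(+/deltaExon4) cultures each received either 2 nM FK228 or the solvent, 0.1% DMSO, from day 1 to 1.5 and again from day 3 to 3.5 in vitro. Rest(+/deltaExon4) mice carry 1 Rest allele without exon 4 in every cell and are called heterozygous below. Each library holds the pooled RNA of 6 to 8 cultures, so a library is not 1 animal. The labels do not say whether pools came from separate litters, and the tests below rest on the spread between pools, which may be partly technical.

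A clustered protocadherin gene of the alpha or gamma type joins its own large variable exon, which carries the extracellular domain, to constant exons shared by the whole cluster. Beta genes have no constant exons and consist of 1 large coding exon. In neurons each cell is known to choose a few isoforms by promoter, a choice that involves CTCF, the cohesin complex and DNA methylation, and the chosen proteins bind their own kind on other membranes, which lets sister neurites recognise and avoid each other. The 5 C-type genes (Pcdhac1, Pcdhac2, Pcdhgc3, Pcdhgc4 and Pcdhgc5) lie at the end of the alpha and gamma clusters and are known to be used more uniformly across cells. FK228 (romidepsin) inhibits class I histone deacetylases, and REST is a repressor of neuronal genes that recruits such deacetylases.

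On GRCm38 the 3 clusters follow each other on the plus strand of chromosome 18. The alpha cluster spans 36930184 to 37187661, the beta cluster 37264938 to 37524479 and the gamma cluster 37661793 to 37841873. A read counted for a gene had to fall on exons of that gene alone. By the GENCODE M21 annotation a median of 46.5% of the exon bases of an alpha gene, 100% of a beta gene and 54.8% of a gamma gene are unshared. Alpha and gamma counts are therefore counts of the variable exons, and reads on the constant exons are in no gene's count. Over all 16 libraries the alpha genes collected 779 counts, the beta genes 18174 and the gamma genes 16809. The filter on low counts kept 41 members, namely Pcdhac2 of the alpha cluster, 20 beta genes (all but Pcdhb1 and Pcdhb2) and all 20 gamma genes.

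Libraries held 12361027 to 23611571 gene counts, and 3.0% to 3.46% of reads were ambiguous between genes. Reads in no gene made up 10.8% in replicate 1 of wild type with solvent, 10.4% in replicate 4 of heterozygous with solvent, and 12.9% to 20.8% in the other libraries. Both libraries were kept, and counts without them are given beside the results. ERCC spike-in RNA took 0.312% to 0.393% of counts in the heterozygous FK228 libraries and 0.156% to 0.237% in the other 12. Markers of hair cells (10 genes) summed to 371 to 778 CPM and markers of supporting cells (10 genes) to 944 to 1612 CPM over the 16 libraries, and no gene of either list was at 0 in all libraries. CPM stands for the usual depth-scaled gene count, here over library sizes scaled by edgeR's TMM factors. Rest itself measured 75.2 to 86.4 CPM in wild type with solvent, 69.9 to 79.9 with FK228, 78.1 to 94.8 in heterozygous cultures with solvent and 75.8 to 87.3 with FK228, and none of the comparisons below called it. A count over the whole gene does not isolate exon 4 and so does not check the deletion.

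Per kilobase of unshared exon, the gamma gene Pcdhgc3 was the most abundant member, with a mean of 9.22 CPM per kb over the 16 libraries. The highest beta gene was Pcdhb17 with 2.79 CPM per kb, followed by Pcdhb9. Pcdhga5 with 2.26 CPM per kb was second in the gamma cluster. Pcdhac2 led the alpha cluster with 0.509 CPM per kb, and Pcdha12 followed with 0.179 CPM per kb. Within clusters the counts were spread over many members. The 5 beta genes with the most counts (Pcdhb17, Pcdhb14, Pcdhb9, Pcdhb7 and Pcdhb20) took 60.3% ± 2.38 (SD, n = 4) of the beta counts in wild type with solvent and 62.1% ± 2.34 (SD, n = 4) with FK228. In heterozygous cultures they took 61.6% ± 2.05 (SD, n = 4) and 58.0% ± 4.58 (SD, n = 4). The leading beta genes thus had about the same share of a smaller total.

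**Figure D1:**
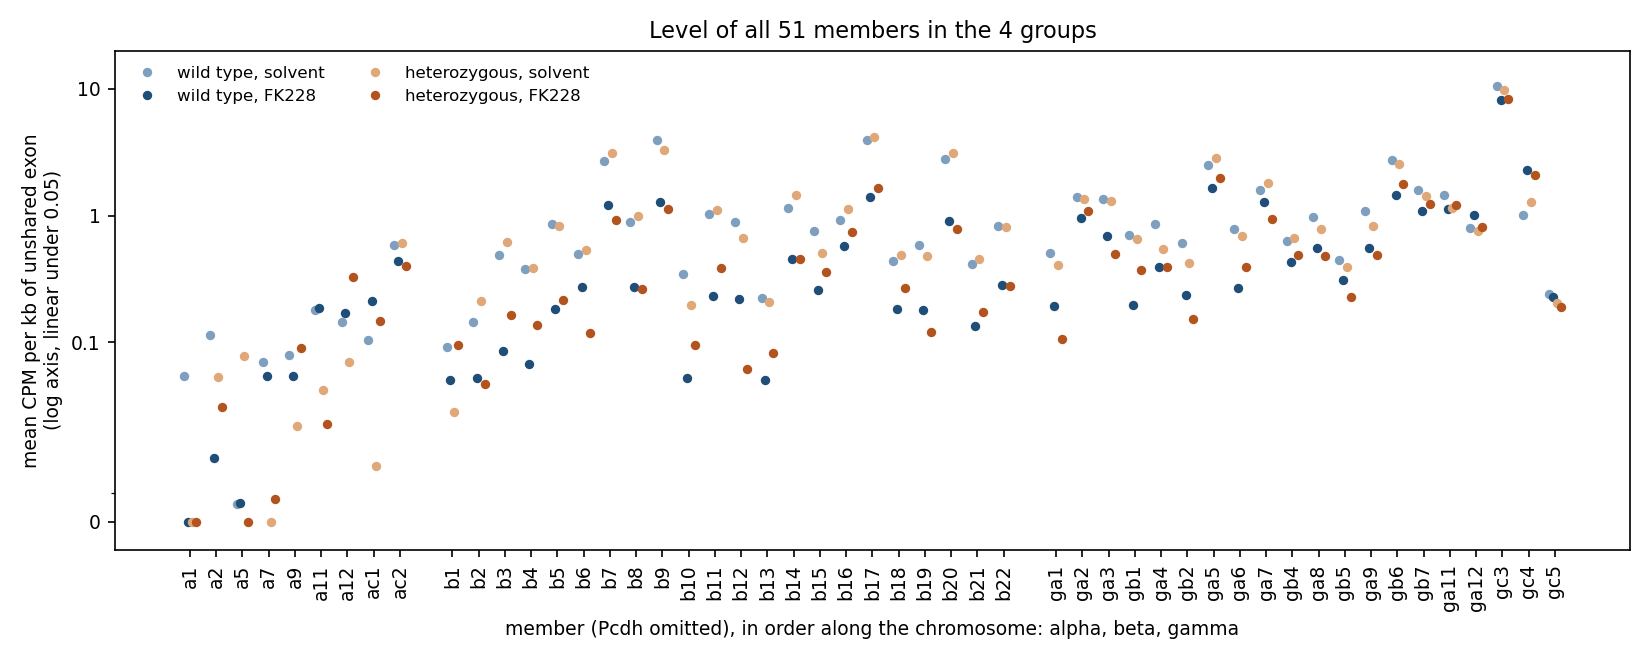
Mean CPM per kilobase of unshared exon of all 51 members in the 4 groups (4 libraries each), in chromosomal order, on an axis that is logarithmic above 0.05. Pcdhgc3 stands highest, the beta genes sit lower in both FK228 groups (dark points), and the alpha genes other than Pcdhac2 lie near 0.

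The beta cluster was lower with FK228 in both genotypes. The summed level of the 22 beta genes was 119, 77.5, 93.4 and 107 CPM in the 4 wild-type solvent libraries and 34.0, 36.9, 34.0 and 36.9 CPM in the 4 wild-type FK228 libraries. In heterozygous cultures it was 94.5, 97.1, 115 and 110 CPM with solvent and 30.9, 34.5, 45.1 and 36.6 CPM with FK228. The groups did not overlap in either genotype. Group means were 2.80-fold lower in wild type (log2 ratio -1.49) and 2.83-fold lower in heterozygous cultures (log2 ratio -1.50). In bulk RNA, fewer cells that express these genes and less RNA per cell cannot be told apart.

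The gamma cluster changed less. Its summed level was 79.1, 66.2, 78.7 and 76.3 CPM in wild type with solvent and 51.9, 61.6, 58.2 and 53.3 CPM with FK228. In heterozygous cultures it was 70.1, 68.0, 76.3 and 70.7 CPM with solvent and 49.2, 58.5, 63.7 and 50.2 CPM with FK228. Again the groups did not overlap, and the log2 ratios of the means were -0.42 and -0.36. The alpha cluster summed to 3.56 ± 0.400 CPM (SD, n = 4) in wild type with solvent and 2.99 ± 0.479 with FK228, and to 2.56 ± 0.863 and 2.66 ± 1.38 in heterozygous cultures. The alpha groups overlapped in both genotypes.

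Shares of the members' counts do not depend on how libraries are scaled to each other. Beta genes took 52.8% to 58.8% of all member counts in the wild-type solvent libraries and 35.7% to 39.4% in the wild-type FK228 libraries. In heterozygous cultures the range was 56.7% to 60.3% with solvent and 35.9% to 41.6% with FK228. Gamma genes took 39.2% to 45.1% and 56.9% to 61.1% in wild type, and 38.7% to 42.1% and 56.3% to 61.0% in heterozygous cultures. With FK228 the gamma genes thus held the larger share in all 8 libraries, and with solvent the beta genes did in all 8. Gamma counts leave out reads on the constant exons, which beta genes lack. Which cluster holds the larger share therefore depends on what is counted. The change of the shares with FK228 compares counts made by the same rule.

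**Figure D2:**
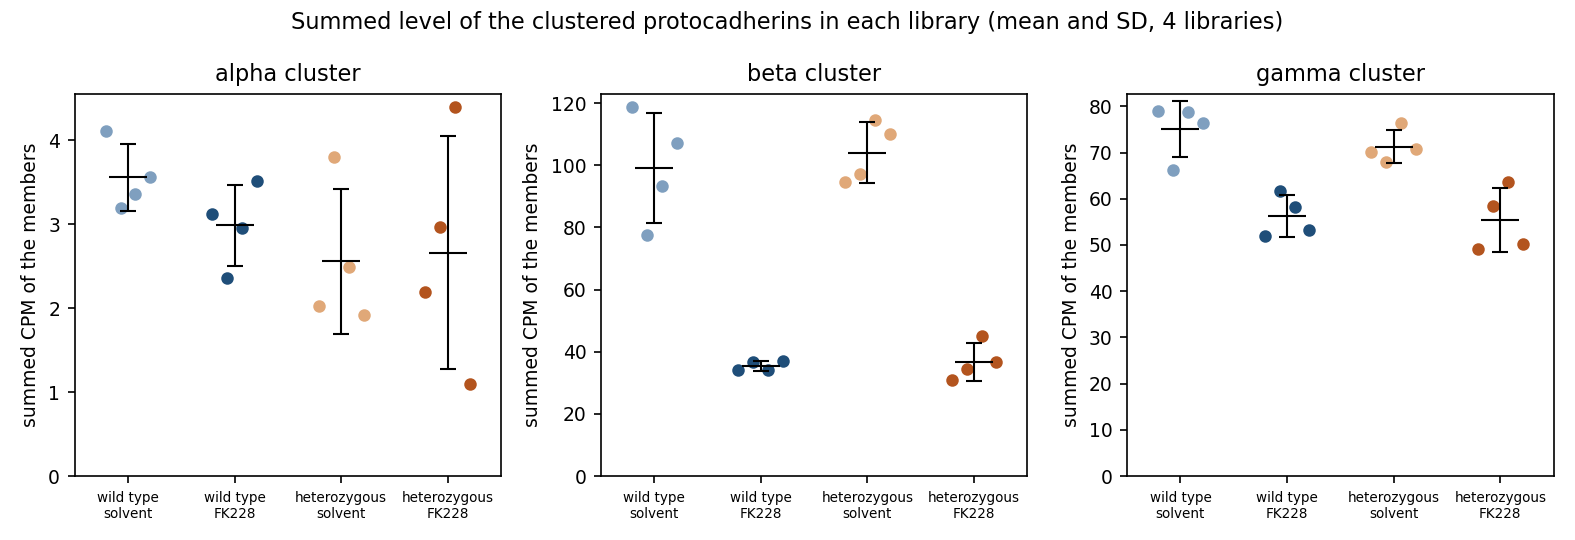
Summed CPM of the members of each cluster in each of the 16 libraries (points), with the group mean (bar) and SD (whiskers, n = 4). Beta sums lie at 77.5 to 119 CPM with solvent and at 30.9 to 45.1 CPM with FK228, gamma sums differ less, and the alpha groups overlap.

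Gene by gene, the quasi-likelihood test of edgeR, with p adjusted by Benjamini-Hochberg over 17125 genes, called 30 members lower and 1 higher with FK228 in wild type, of 41 tested. Over all genes 25.3% were called lower and 23.7% higher, so 49% changed in either direction. In heterozygous cultures 21 members were lower and 1 was higher, against 24.7% and 23.8% of all genes (48.4% in either direction). The median log2 fold change of the tested members was -1.25 in wild type and -0.94 in heterozygous cultures, and that of all genes tested was -0.01 and 0.00. Of the beta genes 19 of 20 fell in wild type (median -1.61) and 16 of 20 in heterozygous cultures (median -1.54). Of the gamma genes 11 of 20 fell and 1 rose in wild type (median -0.59), and 5 fell and 1 rose in heterozygous cultures (median -0.51). Those 5 of 20 are about the share of all genes called lower there (24.7%), while the gamma median lay below that of all genes. The count of lower gamma genes in wild type was 7 without replicate 4 of the solvent group or replicate 1 or 7 of the FK228 group. In both genotypes 15 beta and 4 gamma genes fell, the latter being Pcdhga1, Pcdhga3, Pcdhgb2 and Pcdhga9. Without the 2 libraries with few reads in no gene, 18 beta and 8 gamma genes fell in wild type, and 14 and 4 in heterozygous cultures.

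In wild type all 4 FK228 libraries lay below all 4 solvent libraries for 18 of 20 beta genes and 8 of 20 gamma genes, against 22.8% of all genes tested. In heterozygous cultures this held for 13 beta and 5 gamma genes, against 21.5% of all genes. The 5 of 20 gamma genes are near that share. A higher level without overlap was seen for 1 gamma gene in wild type (21.9% of all genes) and for 0 in heterozygous cultures (21.1%).

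With libraries scaled by their ERCC counts, the all-gene median stood at -0.16 in wild type and -0.72 in heterozygous cultures. The share of lower calls among all calls then went from 51.6% to 69.2% and from 51% to 93%. Under that scaling 19 beta genes fell in wild type and 19 in heterozygous cultures, 11 and 17 gamma genes fell, and 1 and 0 gamma genes rose. Relative to the median of all genes the members' median was -1.21 and -0.95 with ERCC scaling, against -1.24 and -0.94 with TMM.

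**Figure D3:**
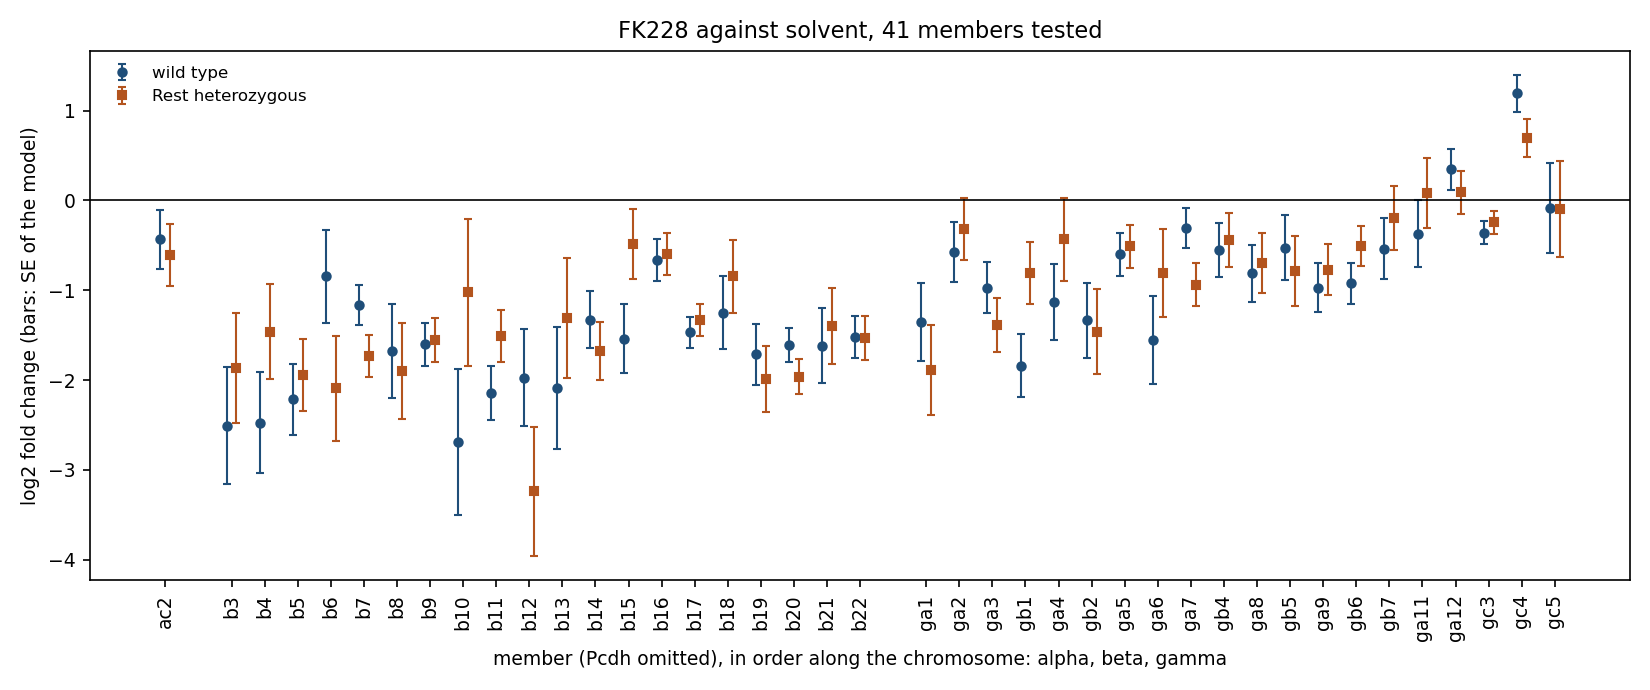
Log2 fold change with FK228 against solvent (points, with the SE of the model) of the 41 members tested, in chromosomal order, in wild type (circles) and heterozygous cultures (squares). All 20 beta genes lie below 0 in both genotypes, and the gamma genes tend to lie higher towards the end of the cluster. Pcdhgc4 is the highest, while Pcdhgc3 and Pcdhgc5 lie below 0.

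Pcdhb17, the most abundant beta gene, measured 21, 13.9, 18.3 and 19.8 CPM in wild type with solvent and 6.76, 7.07, 5.44 and 7.13 CPM with FK228. The heterozygous libraries measured 17.6, 14.5, 22.4 and 23.4 CPM with solvent and 6.96, 8.89, 8.78 and 6.22 CPM with FK228. Every FK228 library was below every solvent library of its genotype. The log2 fold change was -1.47 ± 0.18 (SE, adjusted p = 2.08e-06) in wild type and -1.33 ± 0.18 (SE, adjusted p = 6.39e-06) in heterozygous cultures.

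Pcdhb20 had the smallest p of all members in both genotypes. It measured 12.6, 9.35, 8.19 and 9.48 CPM in wild type with solvent and 3.12, 3.38, 3.26 and 3.23 CPM with FK228. Heterozygous cultures measured 9.09, 12.1, 13.5 and 9.38 CPM with solvent and 1.97, 3.31, 3.31 and 2.68 CPM with FK228. Both comparisons were free of overlap, and the level was 3.05-fold lower in wild type (adjusted p = 1.76e-06) and 3.90-fold lower in heterozygous cultures (adjusted p = 2.35e-07).

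Pcdhb9 showed the same pattern, with 13.1, 9.90, 11.6 and 13.5 CPM in wild type with solvent and 4.49, 3.99, 4.05 and 3.28 CPM with FK228. Its heterozygous libraries measured 9.09, 11.1, 10.8 and 9.11 CPM with solvent and 5.29, 1.45, 3.65 and 3.31 CPM with FK228. It fell by 1.60 and 1.55 on the log2 scale (adjusted p = 2.26e-05 and 4.49e-05). Beta genes are close in sequence, but no stretch as long as a read (126 bases) of Pcdhb17, Pcdhb20 or Pcdhb11 occurs in another cluster gene. The share of such stretches was highest for Pcdhb21 (7.21%) and Pcdhb22 (5%).

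Pcdhb7 measured 11.1, 5.89, 9.93 and 11 CPM in wild type with solvent and 3.58, 3.45, 4.59 and 5.32 CPM with FK228, and 10.6, 13.3, 8.55 and 11.1 CPM against 2.34, 3.45, 4.26 and 2.99 CPM in heterozygous cultures. Its groups did not overlap. The fold was 2.24 in wild type (adjusted p = 3.00e-04) and 3.32 in heterozygous cultures (adjusted p = 7.52e-06). Pcdhb11 was the lowest in absolute terms of these 5 genes, at 6.24, 3.14, 5.50 and 3.45 CPM in wild type with solvent and 1.36, 0.665, 0.845 and 1.25 CPM with FK228. It was 4.42-fold lower in wild type (adjusted p = 1.25e-05) and 2.85-fold lower in heterozygous cultures (adjusted p = 3.26e-04).

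The other tested beta genes had log2 fold changes between -2.69 and -0.67 in wild type and between -3.24 and -0.48 in heterozygous cultures. Those that did not pass the test were looked up after their values were seen. Pcdhb6 was the only one in wild type (log2 fold change -0.85 ± 0.52, SE, adjusted p = 0.185). Pcdhb10 (-1.02), Pcdhb13 (-1.31), Pcdhb15 (-0.48) and Pcdhb18 (-0.85) did not pass in heterozygous cultures, and their interaction terms did not pass either. Among the called beta genes Pcdhb16, also picked after its values were seen, moved least, by -0.67 ± 0.23 in wild type and -0.60 ± 0.23 in heterozygous cultures (SE). Pcdhb12, picked likewise, had the largest estimate in heterozygous cultures (-3.24 ± 0.72, SE). This fitted value depends on the prior count and is no bound, since 3 of 4 heterozygous FK228 libraries held 0 counts, and the 4 solvent libraries had 0.699, 0.851, 0.808 and 0.616 CPM.

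In the gamma cluster the genes of the A and B subfamilies fell or did not pass the test, while of the 3 C-type genes 1 rose and 1 fell in wild type. The 11 gamma A genes summed to 33.4 ± 2.54 CPM in wild type with solvent and 22.3 ± 3.27 with FK228, and to 31.8 ± 2.21 and 21.1 ± 1.82 in heterozygous cultures (SD, n = 4). The 6 gamma B genes summed to 17.8 ± 2.96 and 9.86 ± 1.31 CPM, and to 16.3 ± 1.48 and 11.1 ± 2.58 CPM. Of the gamma A genes 7 fell in wild type and 4 in heterozygous cultures. Of the gamma B genes 3 and 1 fell. Over all genes 25.3% and 24.7% were called lower, and the 1 of 6 gamma B genes in heterozygous cultures is below that share. The 5 C-type genes of the alpha and gamma clusters together summed to 25.9 ± 1.60 and 25.9 ± 1.32 CPM in wild type. In heterozygous cultures they summed to 25.2 ± 1.24 and 24.8 ± 3.79 CPM. Their summed level under TMM scaling thus differed by less than its SD in both genotypes. In wild type that sum holds both Pcdhgc4, which rose, and Pcdhgc3, which fell, so the single genes did not stay level. Under ERCC scaling the heterozygous estimates were -0.95 for Pcdhgc3, -1.33 for Pcdhac2 and -0.05 for Pcdhgc4, so the level sum there holds for TMM only.

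Pcdhgb1 measured 2.17, 1.49, 2.13 and 1.61 CPM in wild type with solvent and 0.624, 0.846, 0.302 and 0.283 CPM with FK228, without overlap. It was 3.57-fold lower (adjusted p = 3.13e-04). The heterozygous libraries measured 1.26, 1.64, 1.68 and 2.33 CPM with solvent and 1.36, 0.827, 0.811 and 0.944 CPM with FK228. These groups overlapped, and the log2 fold change of -0.81 ± 0.34 (SE) did not pass the test (adjusted p = 0.0588). It passed without replicate 1 of heterozygous with solvent (-0.93), replicate 2 of heterozygous with FK228 (-1.0) or replicate 2 of wild type with FK228 (-0.81).

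Pcdhgb6 measured 8.27, 6.11, 7.46 and 6.38 CPM in wild type with solvent and 4.09, 4.35, 2.48 and 3.96 CPM with FK228 (log2 fold change -0.92 ± 0.22, SE, adjusted p = 0.00228). Heterozygous cultures measured 6.57, 7.27, 7.54 and 4.79 CPM with solvent and 4.39, 3.52, 6.69 and 3.78 CPM with FK228, where -0.51 ± 0.23 (SE) did not pass. It passed without replicate 5 of heterozygous with solvent (-0.63) or replicate 4 of heterozygous with FK228 (-0.75). That last library, at 6.69 CPM, lay above the solvent libraries at 6.57 and 4.79 CPM, and it alone made the groups overlap.

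Pcdhga3 fell in both genotypes without overlap. It measured 3.62, 2.97, 3.25 and 4.20 CPM in wild type with solvent and 1.48, 1.63, 2.05 and 1.98 CPM with FK228, and 3.29, 4.19, 2.96 and 3.22 CPM against 0.832, 1.24, 2.37 and 0.708 CPM in heterozygous cultures. The folds were 1.96 (adjusted p = 0.00840) and 2.62 (adjusted p = 9.11e-04). Pcdhga1, the first gene of the cluster, was lower still in relative terms. It measured 1.13 to 1.82 CPM in wild type with solvent and 0.113 to 1.02 CPM with FK228, and 0.875 to 1.68 CPM against 0.157 to 0.414 CPM in heterozygous cultures (adjusted p = 0.0157 and 0.00442).

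Pcdhga7 passed the test in heterozygous cultures, where it measured 3.99, 3.40, 5.25 and 6.03 CPM with solvent and 1.89, 2.21, 3.18 and 2.44 CPM with FK228 (log2 fold change -0.94 ± 0.24, SE, adjusted p = 0.00303). In wild type it measured 3.25 to 4.68 CPM and 2.55 to 4.23 CPM (-0.30 ± 0.23, SE). The interaction term of this gene, -0.63 ± 0.33 (SE), did not pass (adjusted p = 0.883), so a difference between the genotypes is not shown.

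Pcdhga9 measured 3.12, 3.52, 5.05 and 3.51 CPM in wild type with solvent and 1.31, 2.66, 1.57 and 2.21 CPM with FK228 (log2 fold change -0.97 ± 0.27, SE, adjusted p = 0.00593). The heterozygous libraries measured 2.38, 3.14, 3.91 and 2.19 CPM with solvent and 1.29, 2.14, 1.49 and 1.89 CPM with FK228 (-0.77 ± 0.28, SE, adjusted p = 0.0307). The heterozygous call was lost without replicate 2 (-0.73) or 4 (-0.60) of the solvent group, or replicate 2 (-0.66) or 4 (-0.71) of the FK228 group.

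Pcdhga5, the second gamma gene by level, measured 5.02, 4.95, 9.59 and 6.15 CPM in wild type with solvent and 3.69, 3.14, 5.92 and 4.19 CPM with FK228. The groups overlapped, and the call in wild type (log2 fold change -0.60 ± 0.24, SE, adjusted p = 0.0440) was at the edge of the threshold. It was lost without replicate 3 (-0.34) or 4 (-0.62) of wild type with solvent, replicate 1 (-0.54), 2 (-0.47) or 7 (-0.59) of wild type with FK228, or replicate 3 of heterozygous with FK228 (-0.60). In heterozygous cultures the estimate was -0.51 ± 0.24 (SE), which did not pass.

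Along the gamma cluster the log2 fold change with FK228 tended to be higher towards the end, with exceptions. In wild type the lowest values were at Pcdhgb1 (-1.84) and Pcdhga6 (-1.55, named after its values were seen). The highest were at Pcdhgc4 and Pcdhga12, while Pcdhgc5, the last gene of the cluster, was at -0.08. The Spearman correlation across the 20 gamma genes between their order on the chromosome and their log2 fold change was 0.76 in wild type and 0.73 in heterozygous cultures. Across the same genes the correlation of the log2 fold change with mean level was 0.56 and 0.38. Across the 20 beta genes the correlation with order was 0.38 and 0.28. All genes of a comparison come from the same libraries and later gamma genes differ in level, so these are descriptions across genes, which are not independent replicates. Pcdhga12, the last gene before the C-type genes and picked after its values were seen, had estimates of 0.35 ± 0.23 in wild type and 0.09 ± 0.23 in heterozygous cultures (SE), neither past the threshold, and -0.64 in heterozygous cultures under ERCC scaling.

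Pcdhgc4, a C-type isoform known for its part in the survival of neurons, was the one member that rose. It measured 2.40, 4.29, 2.80 and 4.54 CPM in wild type with solvent and 7.61, 8.58, 7.91 and 7.87 CPM with FK228, without overlap. Heterozygous cultures measured 5.73, 4.58, 3.77 and 3.84 CPM with solvent and 5.60, 8.41, 7.64 and 7.40 CPM with FK228, where the highest solvent library exceeded the lowest FK228 library. The level was 2.29-fold higher in wild type (log2 fold change 1.19 ± 0.21, SE, adjusted p = 1.18e-04) and 1.62-fold higher in heterozygous cultures (0.70 ± 0.21, SE, adjusted p = 0.00998), but under ERCC scaling the heterozygous estimate turned to -0.05. The heterozygous call was also lost in the fit with a block for the replicate numbers. As a share of the gamma counts, which needs no scaling, Pcdhgc4 made up 3.03% to 6.48% with solvent and 13.6% to 14.8% with FK228 in wild type. In heterozygous cultures its share was 4.94% to 8.17% with solvent and 11.4% to 14.7% with FK228, so the shares did not overlap in either genotype. A share cannot tell a rise of Pcdhgc4 from a fall of the other gamma genes.

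Pcdhgc3, the neighbouring C-type gene, is expressed broadly and has a known part in dendrite growth. It measured 21.8, 16.7, 18.8 and 19.7 CPM in wild type with solvent and 14.3, 15.4, 15.8 and 14.6 CPM with FK228, without overlap (log2 fold change -0.36 ± 0.13, SE, adjusted p = 0.0253). The call was lost without replicate 1 of wild type with solvent (-0.29), one of the 2 libraries with few reads in no gene, or replicate 1 (-0.34) or 7 (-0.34) of wild type with FK228. The heterozygous libraries measured 15.4, 18.3, 20.7 and 17.1 CPM with solvent and 14.1, 16.6, 17.5 and 12.0 CPM with FK228 (-0.24 ± 0.13, SE, adjusted p = 0.129). Its share of the gamma counts was 25.6% ± 1.54 and 26.8% ± 1.17 in wild type and 25.0% ± 2.46 and 27.1% ± 2.15 in heterozygous cultures (SD, n = 4).

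Pcdhgc5, the last gene of the cluster, measured 0.588 to 1.49 CPM in wild type with solvent and 0.396 to 1.93 CPM with FK228, and 0.393 to 1.85 CPM against 0.630 to 1.28 CPM in heterozygous cultures. The estimates of -0.08 ± 0.50 and -0.09 ± 0.53 (SE) did not pass the test, and their SE leaves changes of the size seen in other gamma genes within reach. Their sign turned when single libraries were left out, to 0.07 or 0.09 without replicate 3 or 4 of wild type with solvent and 0.19 without replicate 7 of wild type with FK228. In heterozygous cultures it turned to 0.46 without replicate 5 of the solvent group, and to 0.01 or 0.03 without replicate 2 or 5 of the FK228 group.

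**Figure D4:**
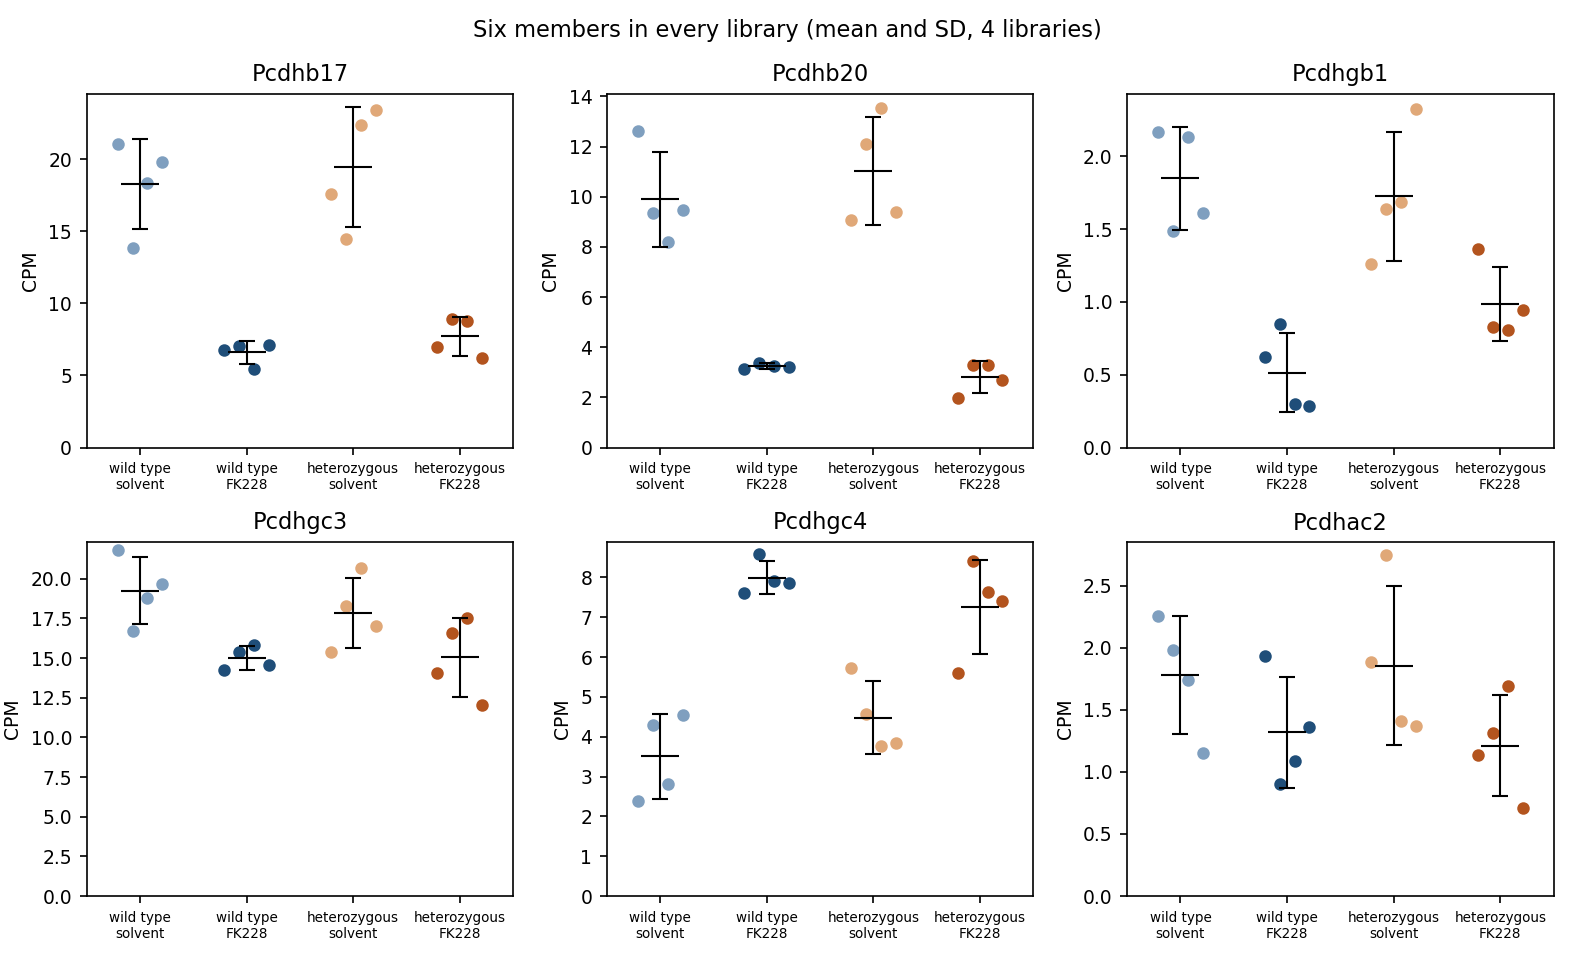
CPM of Pcdhb17, Pcdhb20, Pcdhgb1, Pcdhgc3, Pcdhgc4 and Pcdhac2 in each of the 16 libraries (points), with the group mean (bar) and SD (whiskers, n = 4), on axes that start at 0. Pcdhb17 and Pcdhb20 separate FK228 from solvent in both genotypes, Pcdhgc4 moves the other way, and Pcdhac2 overlaps in both.

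The alpha genes were near the limit of detection. Pcdhac2, a C-type isoform with a known part in the tiling of serotonergic axons, was the only one tested. It measured 2.26, 1.98, 1.74 and 1.15 CPM in wild type with solvent and 1.93, 0.907, 1.09 and 1.36 CPM with FK228. Heterozygous cultures measured 1.89, 2.75, 1.41 and 1.37 CPM with solvent and 1.13, 1.31, 1.69 and 0.708 CPM with FK228. The groups overlapped in both genotypes, and neither -0.43 ± 0.33 (adjusted p = 0.296) nor -0.61 ± 0.35 (adjusted p = 0.158) passed the test (SE).

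The other 8 alpha members were too low to test, with 10 counts (Pcdha1) to 89 counts (Pcdha12) each over all 16 libraries. Pcdhac1 measured 0.452, 0.220, 0.224 and 0.172 CPM in wild type with solvent and 0, 0.302, 0.906 and 0.962 CPM with FK228. In heterozygous cultures with solvent it was at 0 in 3 libraries and at 0.202 CPM in replicate 4, and with FK228 it measured 0.756, 0.483, 0.203 and 0.0787 CPM. Pcdha12 measured 0.168 to 0.440 CPM in wild type with solvent, 0.181 to 0.454 with FK228, 0 to 0.337 in heterozygous cultures with solvent and 0.227 to 1.42 with FK228. Pcdha1 had 3 and 7 counts in 2 wild-type solvent libraries and 0 in the other 14. A count of 0 allows a level of up to 0.127 to 0.243 CPM, depending on the library (3 counts, counting error only). This limit was taken over library sizes without the TMM factors, so it differs slightly from the scale of the other CPM values. Without the filter on low counts edgeR called Pcdha5 lower (-4.62, adjusted p = 0.0336) and Pcdha12 higher (2.20, adjusted p = 0.0378) with FK228 in heterozygous cultures. Pcdhac1 was called higher there in 4 alternatives with libraries left out, for example without replicate 4 of heterozygous with solvent (5.65, adjusted p = 0.0186). With 13 to 89 counts over 16 libraries and groups at or near 0, these fitted values depend on the prior count and are no bounds.

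Between heterozygous and wild-type cultures 0 of the 41 tested members were called, which is near the share of all genes given below. With solvent, edgeR called 0 higher and 0 lower, against 1.2% and 0.823% of all genes (2.03% in either direction), and 0 had an unadjusted p under 0.05. The lowest adjusted p was 0.601, for Pcdhgc4. With FK228, 0 were called in either direction, against 1.21% and 0.928% (2.14% in all). There 2 members had an unadjusted p under 0.05, Pcdhgb1 (log2 difference 0.93 ± 0.38, SE, adjusted p = 0.284) and Pcdhb11 (0.72 ± 0.32, SE, adjusted p = 0.347), and both were higher in heterozygous cultures. DESeq2 also called 0 in both comparisons. Non-overlapping groups were seen for 0 members in either comparison, against 3.1% and 3.13% of all genes with solvent and 4.46% and 4.37% with FK228.

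The size of the genotype differences can be read from the cluster sums. With solvent the log2 ratio of heterozygous to wild type was 0.07 for the beta sum, where the SD of a ratio between single libraries was 0.30, and -0.08 for the gamma sum, with an SD of 0.14. With FK228 the ratios were 0.05 and -0.02. The differences with solvent were 0.09 ± 0.17 for Pcdhb17, 0.15 ± 0.18 for Pcdhb20 and -0.11 ± 0.13 for Pcdhgc3 (SE). Pcdhb14, Pcdhb9 and Pcdhb7 had more counts than Pcdhb20. With solvent Pcdhb9 measured 9.90 to 13.5 CPM in wild type and 9.09 to 11.1 CPM in heterozygous cultures. Pcdhb14 measured 7.10 to 12.4 and 10.6 to 14.2 CPM, and Pcdhb7 measured 5.89 to 11.1 and 8.55 to 13.3 CPM. Under ERCC scaling 20 members were called lower in heterozygous than in wild-type cultures with FK228 (9 beta, 10 gamma and Pcdhac2), where the median of all genes was -0.74 and 99.3% of all calls were lower. Leaving out replicate 3 of heterozygous with FK228 also called 1 member, Pcdhb12 (log2 difference -5.05), a fitted value with the remaining 3 libraries at 0 counts.

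**Figure D5:**
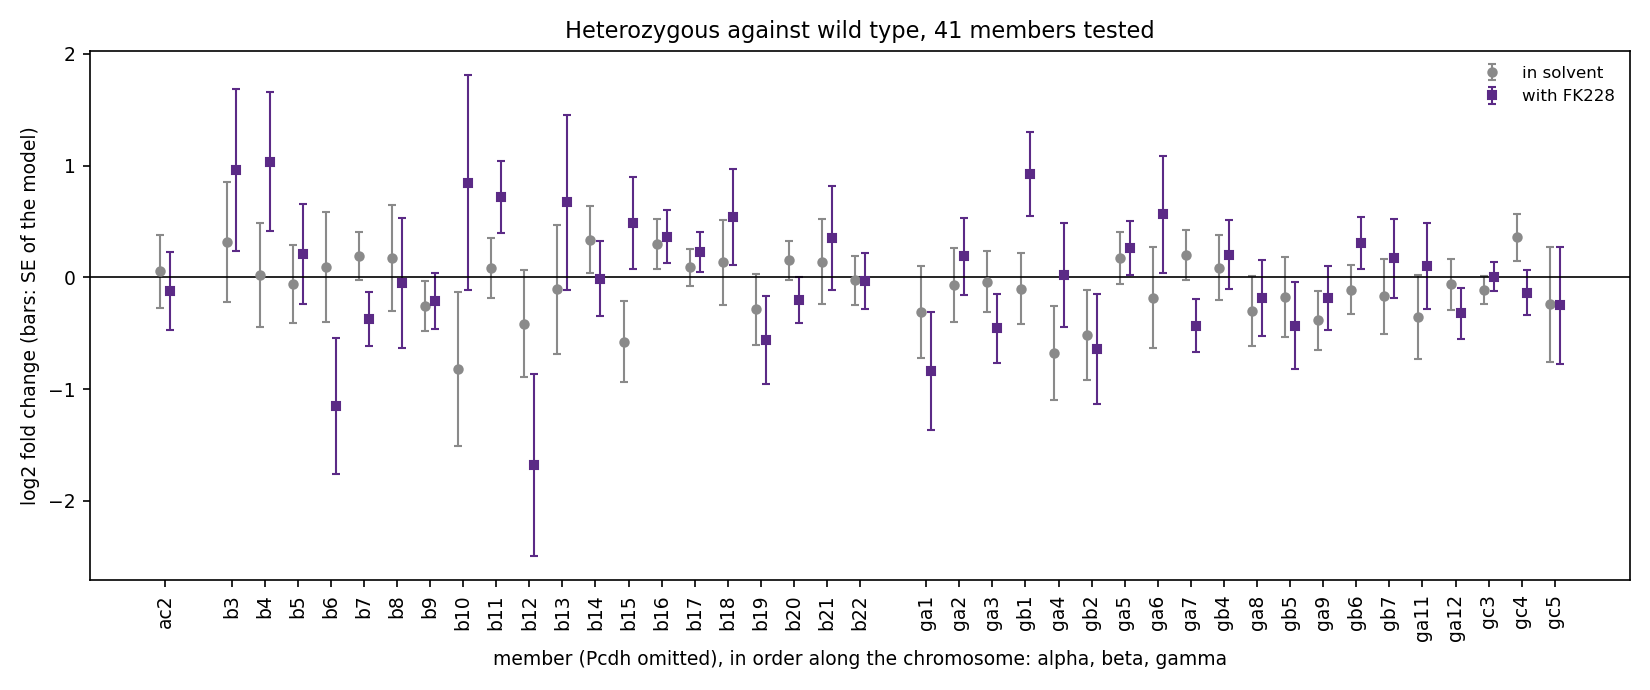
Log2 fold change of heterozygous against wild type (points, with the SE of the model) of the 41 members tested, in chromosomal order, with solvent (circles) and with FK228 (squares). Points lie on both sides of 0, and the widest departures with FK228 belong to beta genes with few counts, such as Pcdhb12.

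Whether FK228 acted differently in the 2 genotypes was tested by the interaction term. The test called 0 of 41 members, against 0.0175% of all genes higher and 0.00584% lower (0.0234% in all), with DESeq2 also at 0 and 0 members at an unadjusted p under 0.05. The lowest adjusted p was 0.860, for Pcdhgb1 (1.03 ± 0.49, SE). For Pcdhgc4 the interaction was -0.50 ± 0.29 (SE, adjusted p = 0.914). Under ERCC scaling 4 members were called lower, Pcdhb7, Pcdhb20, Pcdhga7 and Pcdhgc4. The different numbers of beta genes called in wild type and heterozygous cultures thus go with 0 called differences between them.

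Some genes that lie between or beside the clusters were looked at for their position, after values were seen. Between the beta and gamma clusters, Taf7, a subunit of the general transcription factor TFIID, had log2 fold changes of 0.25 ± 0.08 (SE, adjusted p = 0.0207) in wild type and 0.21 ± 0.09 (SE, adjusted p = 0.0543) in heterozygous cultures with FK228. Beside it Slc25a2, a mitochondrial ornithine carrier, rose from 1.18 to 1.44 CPM to 3.08 to 3.41 CPM in wild type (1.31 ± 0.29, SE, adjusted p = 0.00108) and was 0.78 ± 0.30 (SE, adjusted p = 0.0394) higher in heterozygous cultures. Hdac3, a class I deacetylase encoded past the gamma cluster, was 0.60 ± 0.07 and 0.56 ± 0.07 higher (SE, adjusted p = 1.37e-06 and 3.09e-06). Under ERCC scaling the heterozygous estimates became -0.51 for Taf7, 0.09 for Slc25a2 and -0.15 for Hdac3. Hars, Hars2, Zmat2 and Diaph1, further genes at the flanks, did not pass in either genotype. Of these named neighbours none fell under the TMM scaling. Other entries between the beta and gamma clusters, such as 3222401L13Rik (1032 counts) and Gm8242 (118 counts), are not described here.

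Some entries of the count files overlap exons of cluster genes. Without strand, reads on the overlapping bases could not be assigned to either gene and are in no gene's count. Gm10544 (299 counts), on the minus strand, overlaps exons of no member and only of the Pcdha11 identifier that is not a member. It had log2 fold changes of -0.94 ± 0.34 and -1.17 ± 0.37 with FK228 (SE, adjusted p = 0.0304 and 0.0136). Gm26672 (160 counts), which overlaps exons of Pcdhgb7, Pcdhga11 and Pcdhga12, had 0.04 in both genotypes, and BC037039 (112 counts), Gm37165 (7 counts) and Gm37446 (6 counts) were not tested. The readthrough models that span several members, such as Gm42416 and Gm37013, held 0 counts in all libraries. Reads on the exons they share with cluster genes could not be counted for them, so this does not show that such transcripts were absent.

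The genes known to act on promoter choice in the clusters moved in part with FK228. Of 11 CTCF and cohesin genes 6 fell and 2 rose in wild type, and 5 fell and 1 rose in heterozygous cultures. Ctcf, the DNA-binding factor of these promoters, named outside the rule for named genes, had -0.68 ± 0.14 in wild type and -0.57 ± 0.14 in heterozygous cultures. The cohesin genes Smc1a (-0.75 ± 0.07 and -0.73 ± 0.07), Stag1 (-0.98 ± 0.15 and -0.99 ± 0.15) and Stag2 (-0.70 ± 0.09 and -0.72 ± 0.09) fell in both genotypes (SE). The cohesin gene Smc3 rose in both. It measured 122.5 to 131.9 CPM with solvent and 158.7 to 172.9 CPM with FK228 in wild type. In heterozygous cultures Smc3 measured 125.7 to 133.6 and 154.9 to 169.6 CPM, but its ERCC-scaled estimate there was -0.40. Of 12 genes of DNA methylation and heterochromatin 4 fell and 1 rose in each genotype. The DNA methyltransferase Dnmt3a fell (-0.70 ± 0.07 and -0.86 ± 0.07) and its relative Dnmt3b rose (0.66 ± 0.15 and 0.95 ± 0.16). The medians of the 2 lists were -0.34 and -0.11 in wild type and -0.28 and -0.10 in heterozygous cultures. Of all genes 49% and 48.4% were called, and the counts of these and the following lists stand against that background.

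Of 10 genes for REST and its corepressors 2 rose and 3 fell in wild type and 3 rose and 4 fell in heterozygous cultures. Hdac1, a deacetylase that FK228 inhibits, rose by 0.90 ± 0.10 and 0.93 ± 0.10 on the log2 scale (SE), with 0.22 under ERCC scaling in heterozygous cultures. Of 20 partners and effectors of protocadherin signalling 5 rose and 5 fell in each genotype. Among them Marcks, an actin-linked protein of the growing neurite, fell by 1.15 ± 0.10 and 1.35 ± 0.10 (SE). Wasf1 (0.86 and 0.68) and Cyfip2 (0.69 and 0.67), parts of the WAVE complex that links protocadherins to actin, rose, and Abi1 of the same complex fell (-0.43 and -0.40). The ERCC-scaled heterozygous estimates were -0.03 for both Wasf1 and Cyfip2.

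Protocadherins outside the clusters did not fall as a block. Of 11 tested 2 fell and 1 rose in wild type (median -0.14), and 3 fell and 0 rose in heterozygous cultures (median -0.06). Pcdh18 fell by 1.32 ± 0.16 and 1.38 ± 0.17 (SE). Pcdh15, the tip-link protocadherin of hair cells, named outside the rule for named genes, had -0.14 ± 0.18 and -0.06 ± 0.18 (SE). Pcdh7 was higher in heterozygous than in wild-type cultures with solvent (1.29, adjusted p = 0.0127), a call lost with the level of Y-linked genes as a covariate (1.22). Of 13 classical cadherins and catenins 3 rose and 4 fell in wild type, and 3 rose and 5 fell in heterozygous cultures. Cdh11, a cadherin of mesenchyme, fell by 0.97 ± 0.10 and 1.14 ± 0.10, Cdh6 fell by 1.72 ± 0.20 and 1.29 ± 0.20, and Ctnna2, the neuronal alpha-catenin, rose by 1.51 ± 0.18 in both (SE). In the genotype comparisons the cohesin loader gene Mau2 was higher in heterozygous cultures with solvent (0.98, adjusted p = 0.00561).

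Markers of other cell types moved with FK228 beside these changes. The summed level of 8 macrophage markers was 351 to 437 CPM with solvent and 43.1 to 56.3 CPM with FK228 in wild type, and 241 to 363 against 29.8 to 33.5 CPM in heterozygous cultures, and 8 of 8 fell in each genotype. The sum of 8 mesenchyme markers was 2879 to 3826 and 1497 to 1944 CPM in wild type (7 fell, 1 rose), and 3141 to 4097 and 1620 to 1895 CPM in heterozygous cultures (6 fell, 1 rose). The sum of 8 Schwann cell markers was 316 to 393 and 175 to 205 CPM in wild type (4 of 7 tested fell), and 312 to 375 and 163 to 213 CPM in heterozygous cultures (5 of 7 fell). Endothelial and pericyte markers summed to 249 to 334 and 208 to 256 CPM in wild type and 295 to 742 and 233 to 428 CPM in heterozygous cultures, with 3 of 6 lower in each.

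Neuron markers went the other way more often. The sum of 13 markers of spiral ganglion neurons was 427 to 680 CPM with solvent and 575 to 919 CPM with FK228 in wild type (5 rose, 3 fell), and 264 to 383 and 459 to 579 CPM in heterozygous cultures (7 rose, 1 fell). Supporting cell markers fell in 5 and 6 of 10 cases, and hair cell markers changed in 4 of 10 (1 higher, 3 lower) and 2 of 10 (1 higher, 1 lower). No marker of any list was at 0 in all libraries. The part of these cell types in the fall of the beta genes was not tested. In the genotype comparison with solvent 6 of 13 neuron markers and 2 of 10 hair cell markers were lower in heterozygous cultures. Of the 41 members 0 passed, near the 2.03% of all genes called there.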

How the data were processed

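Per the labels' protocols, cDNA was primed with oligo dT, tagmented and read from both ends. The authors deposited counts of reads per gene and a normalized signal table. The submitters' processing notes name STAR 2.5.2a, the build GRCm38.p4 and DESeq2. The annotation release is not given in the sources used here. Each deposited signal value times a library factor (0.801 to 1.41) gave the deposited count within 0.001 reads, for 100% of values, so these recovered reads served only as an alternative added after seeing the data. The unstranded count column was used, because 49.8% to 49.9% of reads fell in the first strand column. Of 48709 gene rows 99.3% were in GENCODE M21, which gave positions and unshared exon bases. The 92 ERCC rows, 22 rows for reporter genes and SIRV spike-ins, and summary rows stayed out of library sizes. The closest pair of libraries differed by more than sampling noise.

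Low genes were removed with filterByExpr (counts of at least 10, totals of at least 15) and the rest tested with edgeR 4.0.16 in R 4.3.3, with TMM factors, a quasi-likelihood fit of 4 group means to all 16 libraries and Benjamini-Hochberg adjustment over 17125 genes. An adjusted p under 0.05 is a call, and rose or fell is said of calls. The fit was tested on simulated data. Alternatives were DESeq2 1.42.0, RLE and ERCC scaling, other filters, separate fits, a replicate block, a Y-linked covariate, and each library left out. Members and gene lists were chosen with earlier results of these data known. Named genes are Rest, the C-type genes, the 2 highest per kb in each cluster, the 3 smallest p per cluster, direction and FK228 comparison, and up to 4 per list, and others are marked where named.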

Additional observations from a re-analysis of the deposited data

Results flagged for a closer look

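Among 84 sets of 4 libraries (the named members and the 3 cluster sums in each group) 1 held a library whose gap to its neighbour was over the 95% limit of Dixon's test for 4 values. Pcdhac1 was at 0.202 CPM in replicate 4 of heterozygous with solvent and at 0 in the other 3 libraries of that group. With those 3 at 0, any count in the remaining library would be flagged, and it held 3 counts. Chance alone flags about 1 set in 20.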

How the results depend on the processing

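Of 2314 values of named genes under an alternative, 2211 kept direction and side of the threshold, and 372 of 390 counts and cluster ratios stayed within 1.5 times or 1 SD. DESeq2, RLE factors, recovered reads and the Y-linked covariate (log2 of the summed Y-linked level plus 1) called the same 31 and 22 members. The replicate numbers did not pair the libraries (correlations of deviations -0.249 to 0.204 for equal numbers, -0.317 to 0.398 for others). The fit with a replicate block called 24 members in wild type and 20 in heterozygous cultures, 0 of them higher in the latter, and turned Pcdhgc5 in wild type to 0.30. With the block 5 gamma genes were lower in wild type, and Pcdhgc4 in heterozygous cultures (0.69) and Pcdh7 by genotype with solvent (1.30) did not pass.

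ERCC scaling gave 37 lower and 0 higher in heterozygous cultures with FK228, 20 lower by genotype with FK228 and 4 lower by interaction. Its cluster ratios were -2.23 (beta) and -1.09 (gamma) for FK228 in heterozygous cultures, -0.70 and -0.77 by genotype with FK228, and -0.25 for gamma by genotype with solvent. It turned, in heterozygous cultures, Pcdhgc4 (-0.051), Smc3 (-0.40), Sin3a (-0.37), Wasf1 (-0.026), Cyfip2 (-0.031), Psen2 (-0.18) and Ctnnb1 (-0.33). The cause was not tested.

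The count of higher members in heterozygous cultures was 2 without a filter (Pcdha12 added, and Pcdha5 among the lower) and 2 without the 2 libraries with few reads in no gene (Pcdhac1 added). With 1 library left out it ran from 1 to 2, and the lower calls by genotype with FK228 from 0 to 1. Lower calls with FK228 ran from 24 to 31 in wild type and 18 to 22 in heterozygous cultures. Leave-one-out values of Pcdhgc5 ran from -0.55 to 0.19 in wild type and from -0.35 to 0.46 in heterozygous cultures. Without Pcdhac2 the alpha ratio was 1.05 for FK228 in heterozygous cultures and -1.34 by genotype with solvent. Depth limits the alpha genes and the beta genes under 1 CPM.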
